A study of Capra hircus with 2 samples.

Results

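miR-143 and miR-145 are a pair of microRNAs whose genes lie side by side, and each hairpin gives a mature strand from its 5p arm and another from its 3p arm. Every listed known miRNA numbered as miR-143 or miR-145 was taken, whatever its species prefix or end annotation, and repeated names were counted once. This gave 4 of the 587 distinct known names, 1 for each arm of each hairpin. The entries were aja-miR-143_1ss22GT and hsa-miR-143-5p_1ss22TA for miR-143, and cfa-miR-145 and hsa-miR-145-3p_L-2R+1 for miR-145. The names without an arm were read as miR-143-3p and miR-145-5p, since the opposite arm of each was named.

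Small RNA was sequenced from endometrium of multiparous Xinong Saanen dairy goats of 24 months that had been brought into synchronized estrus and mated naturally. The P library came from gestational day 5 (pre-receptive phase) and the R library from gestational day 15 (receptive phase). RNA of several goats was mixed into pools that were sequenced repeatedly, but the tables used give 1 merged value per phase, here called a library, with no replicate and no measure of the spread between goats. Summed over the known names, 1880606 reads were listed for R and 4032588 for P, which is 44.4% and 74.9% of their clean reads. By the study's read summary, R also kept a smaller part of its raw reads as clean reads. It had larger parts of ribosomal RNA and of the shortest clean reads. With 1 library per phase, such differences between the libraries cannot be told apart from the phases.

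In mammals both miRNAs are abundant in smooth muscle and in other cells of mesenchymal origin, and much less so in epithelium. They are commonly processed from a shared primary transcript, and they are known as regulators of the contractile state of smooth muscle, with transcription factors such as KLF4 and ELK1 among their published targets. In the uterus they are known from the myometrium and the stroma. In the goat reference assembly ARS1.2 the genes MIR145 and MIR143 were neighbours on the same chromosome with 0 annotated genes between them, and the flanking genes were CSNK1A1 and IL17B. A position in the assembly used for the deposited tables was not analysed here.

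The sequence listed for each name is shown because the arms and their seeds set which targets can be recognised. Bases 2 to 8 from the 5′ end, the seed, are in capitals.
miR-143-3p: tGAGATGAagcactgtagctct
miR-143-5p: gGTGCAGTgctgcatctctgga
miR-145-5p: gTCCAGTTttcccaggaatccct
miR-145-3p: aTTCCTGGaaatactgttctt
The 4 seeds differed from each other, and only that of miR-145-5p occurred in another of the 587 known names. That name, mmu-miR-145b_R-3_1ss18GT, fell just outside the rule because its number carries a letter.
miR-145b: gTCCAGTTttcccaggat
It shared its first 17 of 18 bases with miR-145-5p and had 2 reads in R and 3 in P.

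Each listed sequence was compared with the database entry it is named after, with positions counted from the 5′ end of the entry. miR-145-5p equalled its dog entry over all 23 bases. The miR-143 arms differed from their bat and human entries only at the last base, G22T for miR-143-3p and T22A for miR-143-5p. miR-145-3p began 2 bases later than the human entry and ended 1 base beyond it, which moved its seed.
human miR-145-3p entry: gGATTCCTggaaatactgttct
No known name carried the seed of that human entry. The longest uninterrupted stretch in which the arms of a hairpin could pair, without G:U pairs, was 7 bases for miR-143 and 8 bases for miR-145. Per the file headers, a listed sequence is the read with the best mapping score of its cluster, and other reads of the clusters were not analysed here.

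The deposited value of a name is its normalized expression (NE), a signal equal to its reads divided by a size factor of the library. A single read was worth 0.860 NE in R and 1.16 NE in P. By its methods, the study defines NE as reads per 1000000 clean reads, by which a read would be worth 0.236 in R and 0.186 in P. The deposited values thus depart from that formula, with a read of R worth less than a read of P and not more. Relative to the formula, they lower every name in R against P. Scaling to the clean reads is the formula itself. All 4 names had a whole number of reads in both libraries. The intervals given are 95% exact intervals and cover counting error only, since reads amplified by PCR are not independent molecules.

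miR-143-3p had the highest NE of any single known name in both libraries, 1866274 in P and 289634 in R. It had 1604780 reads in P and 336831 in R. The deposited NE was 6.44-fold lower in R, a log2 ratio of R to P of -2.69 (interval -2.69 to -2.68).

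miR-145-5p, the leading strand of the other hairpin, was far less abundant, with an NE of 11339 in P and 2123 in R. It ranked 20th among the known names of P and 55th among those of R. Its deposited NE was 5.34-fold lower in R, a log2 ratio of -2.42 (interval -2.48 to -2.35).

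The minor strands were measured on far fewer reads. miR-145-3p had an NE of 1335 in P and 433 in R, from 1148 and 504 reads. Its log2 ratio was -1.62 (interval -1.78 to -1.47). miR-143-5p had an NE of 577 in P and 238 in R, from 496 and 277 reads. Its log2 ratio was -1.28 (interval -1.49 to -1.06), the smallest of the 4 in size, and its direction reversed when the reads were scaled to the listed reads of each library. The intervals of miR-143-3p and miR-145-5p overlapped neither each other nor those of the minor strands, while the intervals of the minor strands overlapped each other. In each hairpin the leading strand had the larger difference.

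**Figure D1:**
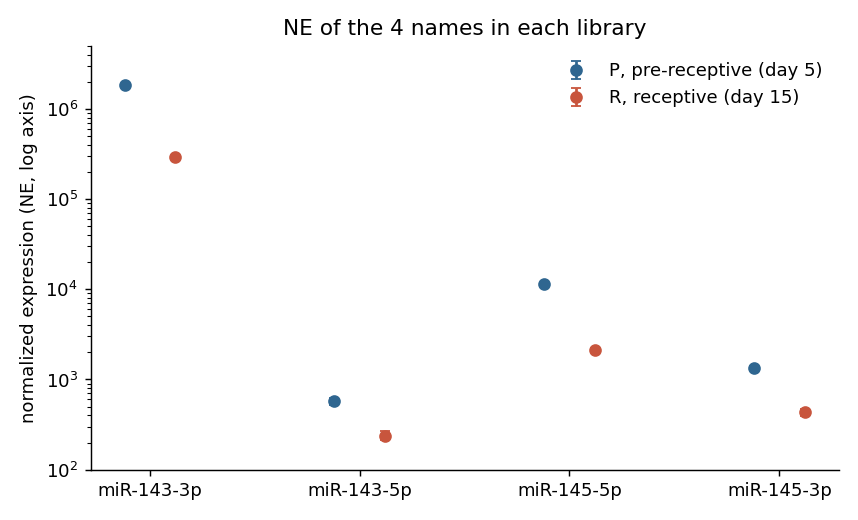
NE of each name (log axis) in the P library (blue) and the R library (red), with 95% exact Poisson intervals that are mostly smaller than the points. Each name had the higher NE in P, from 577 against 238 for miR-143-5p to 1866274 against 289634 for miR-143-3p, while miR-143-5p was higher in R when reads were scaled to the listed reads.

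A known name was called when Fisher's exact test, on a table of its reads and all other clean reads of each library, had a Benjamini-Hochberg adjusted P under 0.05 and the log2 ratio of NE was beyond 1 in size. The test compares the 2 libraries and not the phases. It asks about shares of the clean reads, which are equal where the log2 ratio of NE lies 0.78 below 0, so its P does not belong to the NE difference itself. With the same 2-fold limit but the unadjusted exact interval on the NE scale excluding 0 in place of the test, 48 names were called lower and 67 higher, not 34 and 76, and the intervals of the 4 members lay wholly beyond 2-fold. It was run on the 438 names with an NE above 0 in both libraries and of at least 1 in 1 of them, and all 4 members passed this filter. All 4 were called lower in R on the deposited scale, although miR-143-5p was higher in R when scaled to the listed reads. Of the tested names, 7.76% were called lower and 17.4% higher. The adjusted P was below 1e-300 for miR-143-3p and miR-145-5p by this exact test. It was 1.23e-28 for miR-145-3p and 1.17e-05 for miR-143-5p, again by Fisher's exact test. The median log2 ratio was -2.02 over the 4 members and 0.029 over the 438 names.

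Among the tested names, 11 had a lower log2 ratio than miR-143-3p, 13 than miR-145-5p, 32 than miR-145-3p and 51 than miR-143-5p. Many of these were names with few reads. Of the 95 names with at least 1000 reads over both libraries, 3 had a lower log2 ratio than miR-143-3p. They were oar-miR-133_L+1 (-4.62), bta-miR-490_R+1 (-3.83) and bta-miR-335_R-1 (-3.32), and bta-miR-490_R+1 is named after its value was seen.

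**Figure D2:**
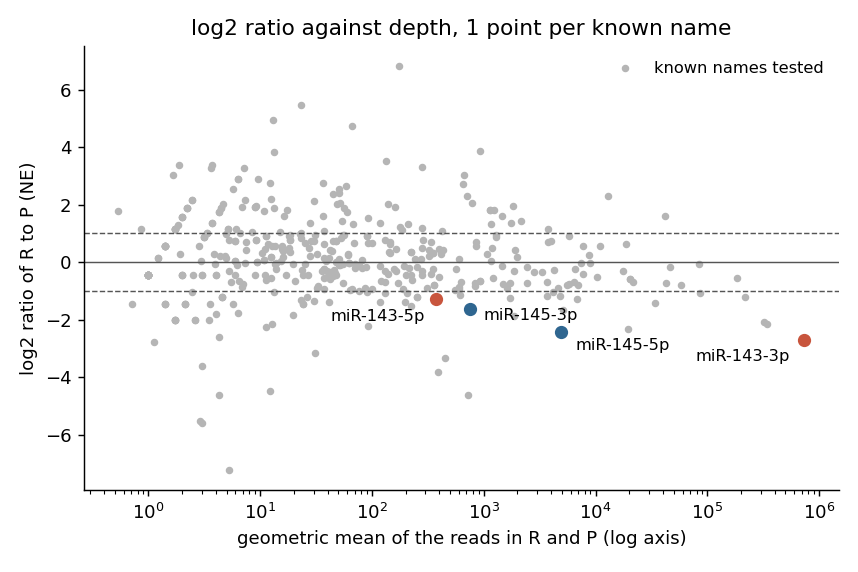
log2 ratio of R to P on the NE scale for the 438 tested names (grey) against the geometric mean of their reads in both libraries (log axis), with miR-143 in red and miR-145 in blue; dashed lines mark log2 ratios of -1 and 1. The 4 members lay between -2.69 and -1.28, and only miR-143-5p was above 0 when reads were scaled to the listed reads.

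The size of these differences depended on how the libraries were scaled to each other. Calls under each scaling kept the adjusted P of the test above, on clean reads, and applied the 2-fold limit to the moved log2 ratio. A name beyond 2-fold was thus left uncalled where that P was not under 0.05, so these counts leave such names out. Reads scaled to the clean reads, which is how the study defines NE, raise every log2 ratio by 0.78, and the median of the tested names then stood at 0.81. Scaled to the listed reads, the shift was 1.54 and the median 1.56. With miR-143-3p left out of the listed reads, the shift was 1.09 and the median 1.12. Setting the median of the tested names to 0 moved the values by -0.029 and left 7.76% of the tested names, the members among them, called lower. Relative to the median of the tested names, which moves with each scaling, the log2 ratio was -2.72 for miR-143-3p, -2.45 for miR-145-5p, -1.65 for miR-145-3p and -1.30 for miR-143-5p.

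miR-143-3p was called lower under each of these scalings, with a log2 ratio of -1.90 by clean reads, -1.60 by listed reads without itself and -1.15 by all listed reads. miR-145-5p was called lower by clean reads (-1.63) and by listed reads without miR-143-3p (-1.33), but by all listed reads it stayed inside the 2-fold limit at -0.88 (interval -0.95 to -0.82). miR-145-3p lay inside the limit in these 3 scalings, at -0.84 by clean reads, -0.53 without miR-143-3p and -0.087 by all listed reads, the last with an interval of -0.24 to 0.065. miR-143-5p lay inside it as well, at -0.49 by clean reads and -0.19 without miR-143-3p (interval -0.40 to 0.028), and turned to 0.26 (interval 0.043 to 0.48) by all listed reads.

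Thus 2 of the 4 names were called lower by clean reads, where 3.88% of the tested names were, and 2 by listed reads without miR-143-3p, where 3.65% were. By all listed reads 1 was called lower, against 2.28% of the tested names. Called higher were 34.2% of the tested names by clean reads, 39% by listed reads without miR-143-3p and 45.9% by all listed reads. The share of calls that were higher in R also moved, from 69.1% with the deposited NE to 89.8% by clean reads, 91.4% by listed reads without miR-143-3p and 95.3% by all listed reads.

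**Figure D3:**
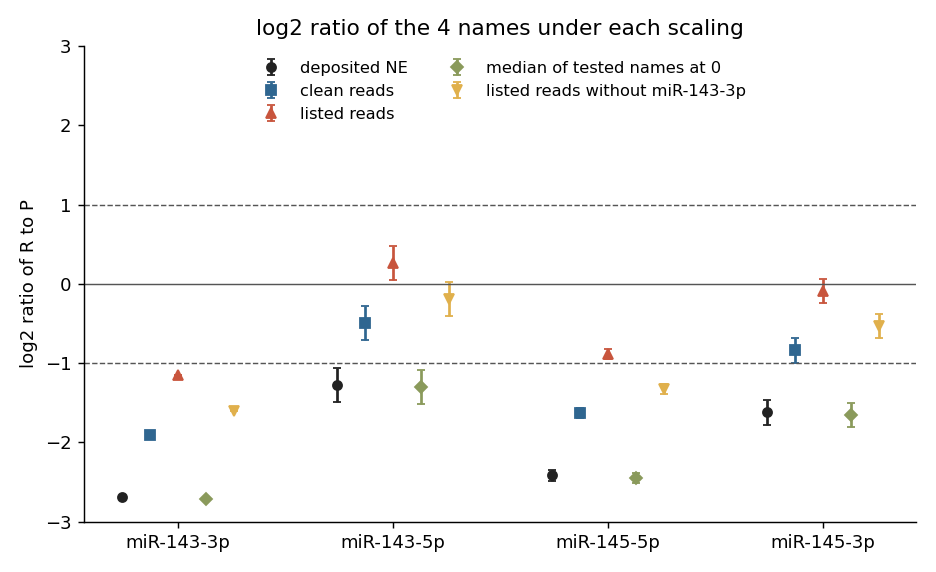
log2 ratio of R to P of the 4 names under 5 scalings, with 95% exact intervals; dashed lines mark the 2-fold limits. miR-143-3p stayed below -1 in each, from -2.72 to -1.15, while miR-143-5p ran from -1.30 to 0.26 and crossed 0 by all listed reads.

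As a share of the listed reads, miR-143-3p fell from 39.8% in P (interval 39.7% to 39.8%) to 17.9% in R (interval 17.9% to 18.0%). miR-145-5p held 0.242% in P (interval 0.237% to 0.247%) and 0.131% in R (interval 0.126% to 0.137%). The shares of the minor strands did not follow. For miR-145-3p the share was 0.0285% in P and 0.0268% in R, with overlapping intervals of 0.0268% to 0.0302% and 0.0245% to 0.0292%, so a difference was not detectable at this depth. For miR-143-5p it was 0.0123% in P (interval 0.0112% to 0.0134%) and 0.0147% in R (interval 0.0130% to 0.0166%), higher in R by the interval of the log2 ratio on this scale. The 4 names together held 40.1% of the listed reads of P and 18.1% of those of R, and the 3 names other than miR-143-3p held 0.283% and 0.173%.

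A strand of this abundance weighs on every total. The summed NE of the known names was 2.90-fold higher in P than in R on the deposited scale, and miR-143-3p made up 51.3% of that difference. By clean reads the sum was 1.69-fold higher in P, with 71.7% of the difference from miR-143-3p. Without this name, the sum was 2.13-fold higher in P on the deposited scale and 1.24-fold by clean reads.

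The names next in abundance were the same 4 in both libraries, oar-miR-10b_L+1R-1, oar-miR-10a_R+1_1ss12TA, oar-miR-26a and oar-let-7a. The ratio of miR-143-3p to each of them does not depend on the scaling. Its reads were 2.60 times those of oar-miR-10b_L+1R-1 in P and 1.80 times in R. Against oar-miR-10a_R+1_1ss12TA they were 2.84 and 1.88 times. The listed sequences of these miR-10 names are identical, so their reads cannot be told apart. Summed, they had 314600 NE (19.5% of the listed reads) in R, above miR-143-3p, and 1375349 NE (29.3%) in P, below it, so the first place of miR-143-3p in R holds by name only. miR-143-3p exceeded oar-miR-26a 5.65 times in P and 2.03 times in R, and oar-let-7a 8.37 times in P and 1.91 times in R. These are ratios to single names, and other names of the let-7 family were not summed with oar-let-7a.

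**Figure D4:**
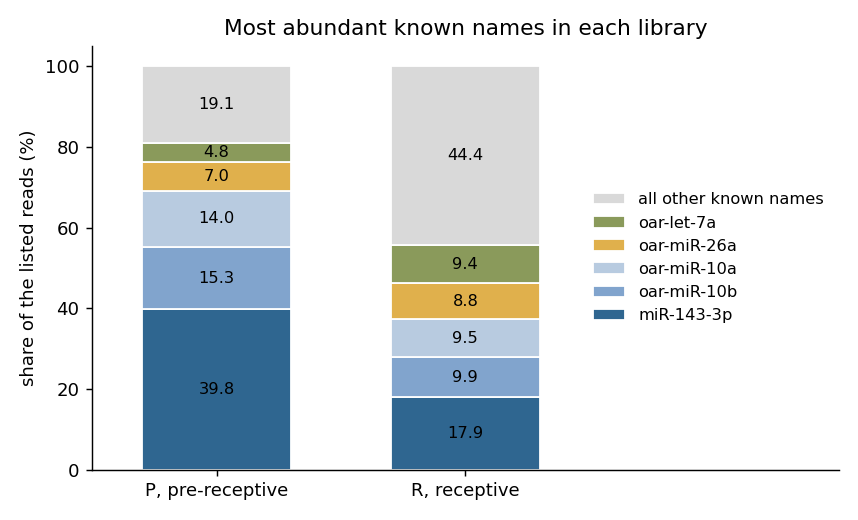
Share of the listed reads (%) held by the 5 most abundant known names and by all other known names, in the P and R libraries. miR-143-3p held 39.8% in P and 17.9% in R, while the miR-10 names, which share a listed sequence, summed to 29.3% in P and 19.5% in R.

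Ratios within a library do not depend on the scaling either, and all 3 that were tested were lower in R. miR-143-3p had 165 reads for each read of miR-145-5p in P (interval 161.35 to 167.92) and 136 in R (interval 131.13 to 141.99). The ratio in R was 0.829 times that in P (interval 0.793 to 0.867; P = 3.62e-16, Fisher's exact test, two-sided). The leading strands of the hairpins therefore differed in proportion between the libraries by more than the counting error of independent reads. The change was smaller than that of either arm ratio. This exact test and those of the arms below take each read as independent, so they cover neither PCR copies nor the spread between goats.

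The balance of the arms moved more. In miR-143 the 3p arm had 3235 reads for each read of the 5p arm in P (interval 2963 to 3540) and 1216 in R (interval 1081 to 1373). The ratio in R was 0.376 times that in P (interval 0.324 to 0.437; P = 1.06e-34, Fisher's exact test). In miR-145 the 5p arm had 8.49 reads for each read of the 3p arm in P (interval 7.99 to 9.04) and 4.90 in R (interval 4.45 to 5.40). The ratio in R was 0.577 times that in P (interval 0.514 to 0.648; P = 3.09e-20, same exact test). In both hairpins the minor strand was thus better represented in R relative to its leading strand. The hairpins led from opposite arms and with very different asymmetry in both libraries. The intervals of the change in the arm ratio did not overlap between the hairpins, and the change was larger in miR-143.

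The minor strands could also be set against each other. miR-143-5p had 0.432 reads for each read of miR-145-3p in P (interval 0.388 to 0.480) and 0.550 in R (interval 0.473 to 0.638), although its hairpin, with the arms summed, had 147 times the reads of the other in P and 113 times in R. The ratio in R was 1.27 times that in P (interval 1.06 to 1.53).

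**Figure D5:**
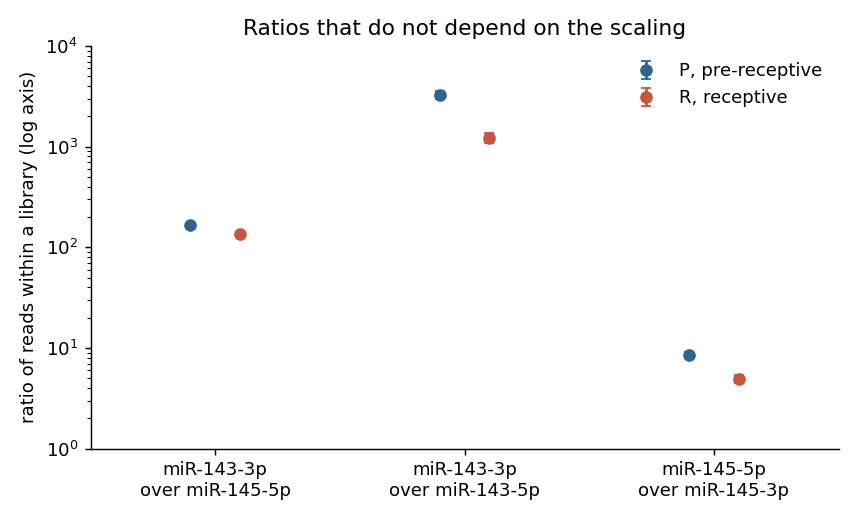
Ratio of reads within each library (log axis) for miR-143-3p over miR-145-5p, miR-143-3p over miR-143-5p and miR-145-5p over miR-145-3p, with 95% exact intervals. Each ratio was lower in R (red) than in P (blue), from 165 to 136, from 3235 to 1216 and from 8.49 to 4.90.

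The names with the most similar log2 ratio were sought among the 95 names with at least 1000 reads, over the 2 libraries only. The nearest to miR-143-3p was miR-145-5p, 0.27 away. It was followed by cgr-miR-101b-3p_1ss22GT (log2 ratio -2.33), oar-miR-10b_L+1R-1 (-2.16), oar-miR-10a_R+1_1ss12TA (-2.09) and bta-miR-335_R-1 (-3.32). The nearest to miR-145-5p was cgr-miR-101b-3p_1ss22GT, 0.091 away, then oar-miR-10b_L+1R-1, miR-143-3p, oar-miR-10a_R+1_1ss12TA and hsa-miR-28-3p_1ss11TA (-1.88). The intervals of miR-145-5p and cgr-miR-101b-3p_1ss22GT (-2.36 to -2.29) overlapped, and those of the other names were clear of both leading strands.

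In pooled tissue, fewer cells of a type and less RNA per cell cannot be told apart. miRNAs known from particular cell types were therefore read beside the members, and their part in the result was not tested. Of 9 numbers known from striated muscle, 5 were listed, with a summed NE of 3796 in P and 211 in R, an 18.0-fold difference in the same direction as the members on the deposited scale. The fold was 10.5 by clean reads, 8.47 by listed reads without miR-143-3p and 6.21 by all listed reads. The most abundant was oar-miR-133_L+1, with 3558 NE in P and 144.9 NE in R. Of 6 tested names, 4 were called lower in R, beside 7.76% of all tested names. Among the called names, oar-miR-133_L+1R-2, hsa-miR-1_1ss1TC and hsa-miR-133a-5p had 0.43 NE in R and passed the filter only through P. The filter thus favoured their calls, and no conclusion is drawn from the count. hsa-miR-499a-5p, with 130 NE in P and 63.6 NE in R, was beyond 2-fold on the deposited scale (log2 ratio -1.03, interval -1.48 to -0.60). It was not called because its adjusted P was 0.372 by Fisher's exact test, which is on clean reads. miR-206, miR-208b, miR-133b and an entry named miR-499 without a letter were not listed, and the cardiac name cfa-miR-208a_R-1 had 0 in R and 1.16 NE in P.

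The list for stromal fibroblasts, miR-199a, miR-199b and miR-214, had nearly equal sums, 97155 NE in P and 97321 NE in R on the deposited scale, and 0 of 7 tested names were called in either direction. As a share of the listed reads the list rose from 2.07% in P to 6.02% in R. By clean reads 2 of the 7 were called higher (hsa-miR-214-3p and bta-miR-199b), by listed reads without miR-143-3p 3 and by all listed reads 5, beside the 34.2%, 39% and 45.9% of all tested names. The remaining names, bta-miR-199a-3p_R-1_2ss20TC21TA and bta-miR-199a-3p_R+1_1ss7GT, could not be called under any scaling. Their adjusted P by Fisher's exact test, on clean reads, was 0.527 and 0.269. The most abundant name of the list was oar-miR-199a-3p, with 84822 and 82015 NE. The lowest log2 ratio among its names was -0.44, for bta-miR-199a-3p_R-1_2ss20TC21TA, above that of each of the 4 members whatever the scaling. Its interval of -1.26 to 0.39 overlapped that of miR-143-5p. These names were not compared directly, so their order was not tested.

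Epithelial miRNAs went the other way. Of 9 numbers, 8 were listed, with a summed NE of 6747 in P and 34929 in R, and 9 of 11 tested names were called higher in R, beside 17.4% of all tested names. The most abundant was hsa-miR-141-3p_R-1, with 5791 NE in P and 28337 NE in R, while miR-200b was not listed and mmu-miR-203-5p_1ss11GA was at 0 in P. The list for ciliated epithelium summed to 1234 NE in P and 4872 NE in R, with 4 of 5 numbers listed. Its most abundant name was hsa-miR-34c-5p, with 1090 and 2778 NE, 3 of 5 tested names were called higher beside the same 17.4% (5 of 5 by clean reads and by listed reads with or without miR-143-3p, beside 34.2% to 45.9%), miR-449c was not listed, and mml-miR-449a-3p_L+1_2ss21GA23CT and both names of miR-449b were at 0 in P.

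Endothelial miR-126 had a summed NE of 21287 in P and 32841 in R, led by hsa-miR-126-5p (14955 and 23369 NE), and 0 of 4 tested names were called on the deposited scale. By clean reads and by listed reads with or without miR-143-3p, 3 of the 4 were called higher, hsa-miR-126-5p, hsa-miR-126-3p and oan-miR-126-3p_L-1R+2, beside 34.2% to 45.9% of all tested names, and the share of the listed reads was 0.454% in P and 2.03% in R. The list for immune cells summed to 5218 NE in P and 7811 NE in R, with 4 of 6 numbers listed, and 2 of 4 tested names were called higher (17.4% of all tested names), or 3 by the same other scalings (34.2% to 45.9%). It was led by cgr-miR-142-5p_L-2R+1 (2524 and 5689 NE). The next name, hsa-miR-155-5p, was not called. On the deposited scale it had the opposite direction, with 2211 NE in P and 1348 NE in R (log2 ratio -0.71). That direction reversed by those scalings, but by clean reads a difference was not detectable (adjusted P = 0.24, Fisher's exact test). miR-150 and miR-146b were not listed, and hsa-miR-155-3p_2ss4CN10AG and the only name of miR-223 were at 0 in P. Erythroid names, with 3 of 4 numbers listed and led by cgr-miR-486-5p (8073 and 5052 NE), summed to 9425 NE in P and 6107 NE in R, a direction that reversed by clean reads and by listed reads with or without miR-143-3p. Of these, 0 of 6 tested names were called on the deposited scale. By those scalings 2 were called higher, near or below the 34.2% to 45.9% of all tested names, and these, aja-miR-144 and hsa-miR-144-3p, have identical values and so count a single signal again. miR-451a was not listed.

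The deposited table of predicted targets pairs miRNA names with 7608 gene identifiers in 87779 pairs, for miRNAs that the authors took as different between the libraries. The study names TargetScan with miRanda in one place and with Mireap in another, and a prediction is not a measurement. The table listed 3 of the 4 members, and miR-145-3p was not among its names. The study's own list of differing miRNAs leaves miR-145-3p out as well, although it was called lower here on the deposited scale. miR-145-5p had 1070 identifiers, miR-143-3p had 1043 and miR-143-5p had 778, against a median of 578.5 over all names of the table. By the length of the list, they ranked 10th, 14th and 41st.

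miR-143-3p and miR-145-5p shared 256 identifiers, 24.5% of the list of miR-143-3p and 23.9% of that of miR-145-5p. For miR-143-3p, the median share of its list found with another name was 13.9%, and miR-145-5p ranked 6th among the other names. The name that shared most with it was bta-miR-15b, with 28.5% of the list of miR-143-3p and 22.3% of its own 1331 identifiers, the longest list of the table. For miR-145-5p the median share was 13.9% as well, and miR-143-3p ranked 9th. Long lists share more identifiers by their length alone, and the overlap was not tested.

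The arms of miR-143 shared 189 identifiers, 24.3% of the list of miR-143-5p and 18.1% of that of miR-143-3p. miR-143-5p and miR-145-5p shared 197, or 25.3% and 18.4% of their lists. The 3 lists together covered 2310 identifiers, 30.4% of all in the table, and 61 identifiers were in all 3. Few identifiers belonged to a member alone. Those listed for no other name numbered 18 for miR-145-5p, 9 for miR-143-3p and 5 for miR-143-5p. A typical identifier of miR-143-3p or miR-145-5p was listed for 17 other names (median), and one of miR-143-5p for 18. In this table the identifiers are numbers without gene names, and 0 of the 7608 matched a gene identifier of the reference, so no identifier was read as a named gene here. Gene names that the study gives for some targets were not used.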

How the data were processed

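Small RNA of endometrium was sequenced in 1 R and 1 P library by the authors. With ACGT101-miR they dropped adapters, junk sequence, other RNA classes and repeats, and mapped the rest to miRBase 20.0 precursors and the goat genome. The deposited unit is a signal, the normalized expression (NE) of each miRNA in each library. The study gives 4233874 clean reads for R and 5386427 for P. Reads were recovered by dividing NE by its most frequent value above 0, the worth of 1 read. Within 0.01, 79.1% of the known names above 0 in R and 83.1% of those in P were whole reads, and the rest were rounded for the tests. The members and lists were chosen with earlier results of these data known.

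Ratios within a library had Clopper-Pearson or exact conditional intervals. Named were the members, names with their number and a letter, names sharing a seed, and the 5 most abundant names of each library. Also named were the 5 names nearest in log2 ratio to each leading strand, and the top name of each marker list. Outside this rule, some other names of the marker lists, bta-miR-490_R+1 and the name sharing most identifiers with miR-143-3p were given as well. Calls and intervals were tested on simulated data with counting error only and without the most abundant names. That check therefore covers neither miR-143-3p nor PCR copies nor the spread between goats. The alternatives were other scalings, filters, tests and denominators. The authors' own comparison of the libraries was not used, except to see which members it lists. Precursor lists of other species, candidates and predicted targets were deposited as names and identifiers or as NE. In the target table each row pairs a miRNA with a gene identifier, while the transcript column lists each identifier once and was not used. Python 3.11.15, numpy 2.4.6, scipy 1.17.1 and matplotlib 3.10.9 were used.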

Additional observations from a re-analysis of the deposited data

How the results depend on the processing

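With reads scaled to the clean reads, to the listed reads or to the listed reads without miR-143-3p, the log2 ratio of miR-143-5p was -0.49, 0.26 and -0.19 and that of miR-145-3p -0.84, -0.087 and -0.53, none of them called. That of miR-145-5p was -0.88 and not called by the listed reads. miR-143-3p kept its call under each scaling, and all 4 kept theirs with the median set to 0, with 1 added to NE and with an interval wholly beyond 2-fold. In the same order of scalings, the known names called numbered 17, 10 and 16 lower (34 with NE) and 150, 201 and 171 higher (76 with NE). With at least 10 reads in both libraries, 45 were called higher. By construction a scaling moves each log2 ratio equally and keeps each adjusted P, and the read minimum leaves fewer names to test. The other filters and tests left both counts within 1.5 times.

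Of all clean reads, miR-143-3p held 7.96% (R) and 29.8% (P), and miR-145-5p 0.0583% (R) and 0.181% (P). Over every listed entry miR-143-3p held 17.7% in R and 39.7% in P. With candidates added it held 39.7% in P, and, with the candidate table's library labels exchanged, 17.8% in R, an alternative chosen after seeing the data. Those labels are the reverse of the other tables'. Summing all arms, the ratio of miR-143 to miR-145 was 113 in R and 147 in P. Distinct transcript identifiers gave no value, since that column is not aligned with the miRNA names. With 1 library per phase, no result has a replicate check.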

Other observations

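The conservation table lists precursors of 23 species that matched the identified miRNAs. mir-143 stood in the lists of 14 species and mir-145 in those of 8, all of which also listed mir-143. The other 6 species with mir-143 were Cow, Mouse, Common Chimpanzee, Chinese Hamster, Sheep and Mexican fruit bat, and Mouse listed mir-145a and mir-145b in place of mir-145. Neither precursor stood in the lists of 9 species. These lists name database entries and hold no expression value.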
